A study of Mus musculus with 6 samples.

Results

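DNA damage signalling and repair genes were read from Illumina MouseWG-6 v2 arrays, on which beads carrying a probe each measure the RNA of 1 gene, in mouse embryonic fibroblasts (MEFs) with and without the B subunit of RNase H2. A list of 46 genes, chosen by their known role but with earlier results of these data known, was used, spread over 6 roles: damage signalling, homologous recombination, the Fanconi anaemia pathway, end joining, base excision with single-strand break repair, and mismatch repair. Of these, 44 had a probe named for them (96 probes), and 33 had at least 1 of 55 probes above background (detection p under 0.01) on at least 1 array, among 10160 such genes on the arrays. Xrcc2 and Eme1 had no probe named for them. The probes of Atr, Mdc1, Nbn, Bard1, Exo1, Fanca, Fancg, Xrcc4, Xrcc5, Tdp1 and Tdp2 were not above background on any array, so that no level is given for these 11 genes.

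The 6 lines were cultures from whole E10.5 embryos on the C57BL/6J background, and all of them, controls included, were p53-/-. Of these, 2 were Rnaseh2b-/-, with exon 5 deleted by a ubiquitously expressed Cre, and 4 were Rnaseh2b+/+. The Rnaseh2b-/- lines were a pair picked by the study from a larger set because their interferon-stimulated genes were the more strongly raised, so that genotype and this selection cannot be told apart, and each line is 1 culture. Cells were kept at 3% oxygen, plated at 200000 per well, and RNA was taken 20 hours after a change of medium, with no added DNA-damaging agent named in the labels.

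RNase H2 cuts RNA strands in RNA:DNA hybrids and removes single ribonucleotides that polymerases leave in DNA. Where it is missing, these ribonucleotides persist, and DNA strands can break at them. Breaks in both strands are sensed by the kinase Atm and the Mre11-Rad50-Nbn complex, and stretches of uncovered single strand by Atr, which pass the signal to the kinases Chek2 and Chek1. Broken ends are then either joined directly by Ku and its partners or copied from the sister chromatid by homologous recombination, a pathway of S and G2 phase whose genes are commonly transcribed with the replication genes by E2F factors. Breaks in 1 strand and damaged bases go to Parp1, Parp2, Xrcc1 and the base excision enzymes. Much of this control acts on proteins, through phosphorylation and ubiquitin, which arrays do not see.

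The promoter windows of 3 genes are printed because these were the genes that had both a higher signal in Rnaseh2b-/- lines at an unadjusted p under 0.05 and a match to TTTCCCGC, a form of the E2F binding motif. The windows, from RefSeq on GRCm38.p6, run from 250 bases before to 50 bases after the start of the gene, on the strand of the gene, and capitals mark the motif, which lay on the opposite strand in each and is therefore read here as its reverse complement. It began 168 bases before the start of Brca2 (chr5:150522371-150522670, + strand), 152 before that of Chek2 (chr5:110839733-110840032, + strand) and 46 before that of Xrcc6 (chr15:82016119-82016418, + strand).
Brca2: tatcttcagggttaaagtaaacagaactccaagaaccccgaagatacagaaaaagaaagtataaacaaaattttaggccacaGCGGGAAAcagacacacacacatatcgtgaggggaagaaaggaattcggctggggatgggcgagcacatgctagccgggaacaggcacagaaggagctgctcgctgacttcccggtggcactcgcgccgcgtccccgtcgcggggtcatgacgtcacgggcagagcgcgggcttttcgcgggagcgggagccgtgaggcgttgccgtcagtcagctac
Chek2: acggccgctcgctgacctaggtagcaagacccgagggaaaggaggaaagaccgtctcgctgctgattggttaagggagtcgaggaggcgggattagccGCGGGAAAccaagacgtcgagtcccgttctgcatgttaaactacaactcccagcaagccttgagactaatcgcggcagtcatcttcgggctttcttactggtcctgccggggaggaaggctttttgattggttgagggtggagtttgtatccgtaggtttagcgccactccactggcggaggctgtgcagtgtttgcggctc
Xrcc6: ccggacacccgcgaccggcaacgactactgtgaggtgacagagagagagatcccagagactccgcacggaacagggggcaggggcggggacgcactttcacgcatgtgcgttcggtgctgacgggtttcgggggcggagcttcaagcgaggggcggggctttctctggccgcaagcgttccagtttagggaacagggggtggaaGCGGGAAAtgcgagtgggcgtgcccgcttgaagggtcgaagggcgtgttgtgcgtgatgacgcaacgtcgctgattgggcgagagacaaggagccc
Windows were at hand for 36 of the 46 genes (38 windows), and TTTCCCGC stood on either strand in 7 of these windows (18.4%), those of Bard1, Fancg, Mdc1 and Msh6 besides the printed ones. It stood in 1.07% of 32851 windows of all genes and in 1.9% of 10604 windows of genes tested here. Of the 7 listed genes higher at an unadjusted p, 5 had a window and 3 of those held the motif. A match describes the letters only.

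Rnaseh2b itself was checked first. Its log2 signal was 5.43 and 5.53 in the 2 Rnaseh2b-/- lines and 9.81, 9.17, 9.48 and 9.50 in the 4 controls, so that every line matched its label. Per array, 15519 to 16114 probes were above background, and pairs of arrays correlated at 0.928 to 0.988 over probes. Markers of other cell types differed between the lines. All 10 fibroblast markers were measured, and their mean log2 signal lay 0.37 and 0.086 under the control mean in Rnaseh2b-/- replicates 1 and 2. Of the 10, 9 had a log2 fold change under 0. Both Rnaseh2b-/- lines lay below all controls for Col3a1 (-0.61) and Col1a1 (-0.54), and above them for Fn1 (0.59). The 10 measured of 12 muscle markers (Ckm was not above background) lay 5.09 and 0.67 above it in the same order, against -0.46 to 0.62 in single controls. The 6 measured of 10 epithelial markers lay on average 2.44 and 1.46 above it, against -0.41 to 0.36 (Epcam, Cldn6 and Esrp1 were not above background). They did not move alike. The keratin genes Krt7, Krt8, Krt18 and Krt19 had log2 fold changes of 2.31 to 3.18, while Cdh1 (0.59) and Cldn7 (0.021) had overlapping groups. Of the blood and endothelial markers 2 of 10 and 1 of 8 were measured, with Ptprc, Csf1r, Pecam1 and Cdh5 not above background. The 2 blood markers lay on average 0.17 and 0.13 under the control mean (-0.49 to 0.77 in controls), but they went opposite ways. Both Rnaseh2b-/- lines lay above all controls for Cd14 (log2 fold change 0.53). They lay below all controls for Lyz2, which was above background in 1 control alone. The endothelial marker, Tek, had a log2 fold change of -1.12. Of 4 measured of 8 neural markers, Stmn2 lay at -1.61, with both Rnaseh2b-/- lines below all controls (unadjusted p = 0.00415), Nes at 1.62 (unadjusted p = 0.0356) and Map2 at -0.13. Dcx was above background in 1 Rnaseh2b-/- line and no control, with a lower bound of 1.09-fold more in Rnaseh2b-/- lines and overlapping groups. In bulk RNA, fewer cells of a type and less RNA per cell cannot be told apart.

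On average, Rnaseh2b-/- lines lay above controls for 7 of 10 measured recombination genes on the list (47.4% of all genes did). The same held for 2 of 7 base excision and single-strand break genes. Both lines lay above all 4 controls for 4 of the 10 and 0 of the 7 (12.5% of all genes). No listed gene passed the threshold. With limma, 0 of 33 genes had an adjusted p under 0.05, the smallest being 0.181 for Prkdc, while over all 10160 genes 36 were higher (0.354%), 16 were lower (0.157%) and 52 either (0.512%). At an unadjusted p under 0.05, 7 of 33 were higher (21.2%, against 7.99% of all genes) and 1 was lower (against 9.13% of all genes). Both Rnaseh2b-/- lines lay above all 4 controls for 11 of 33 genes (33.3%, against 12.5% of all genes) and below all 4 for 2 (against 15.1%). The median log2 fold change, Rnaseh2b-/- minus Rnaseh2b+/+, was 0.22 for the listed genes and -0.020 for all genes, and 69.7% of the listed genes were above 0 against 47.4% of all genes. Prkdc was above background in Rnaseh2b-/- cells alone and so was counted only through them, which favours a higher value there. Without it the median was 0.21, with 6 genes higher and 10 above all controls of 32. For 1 gene in 2 lines against 4, the smallest p that an exact permutation test allows is 0.0667. Since the count of genes is over genes that may move together, no test was made of the list as a whole.

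**Figure D1:**
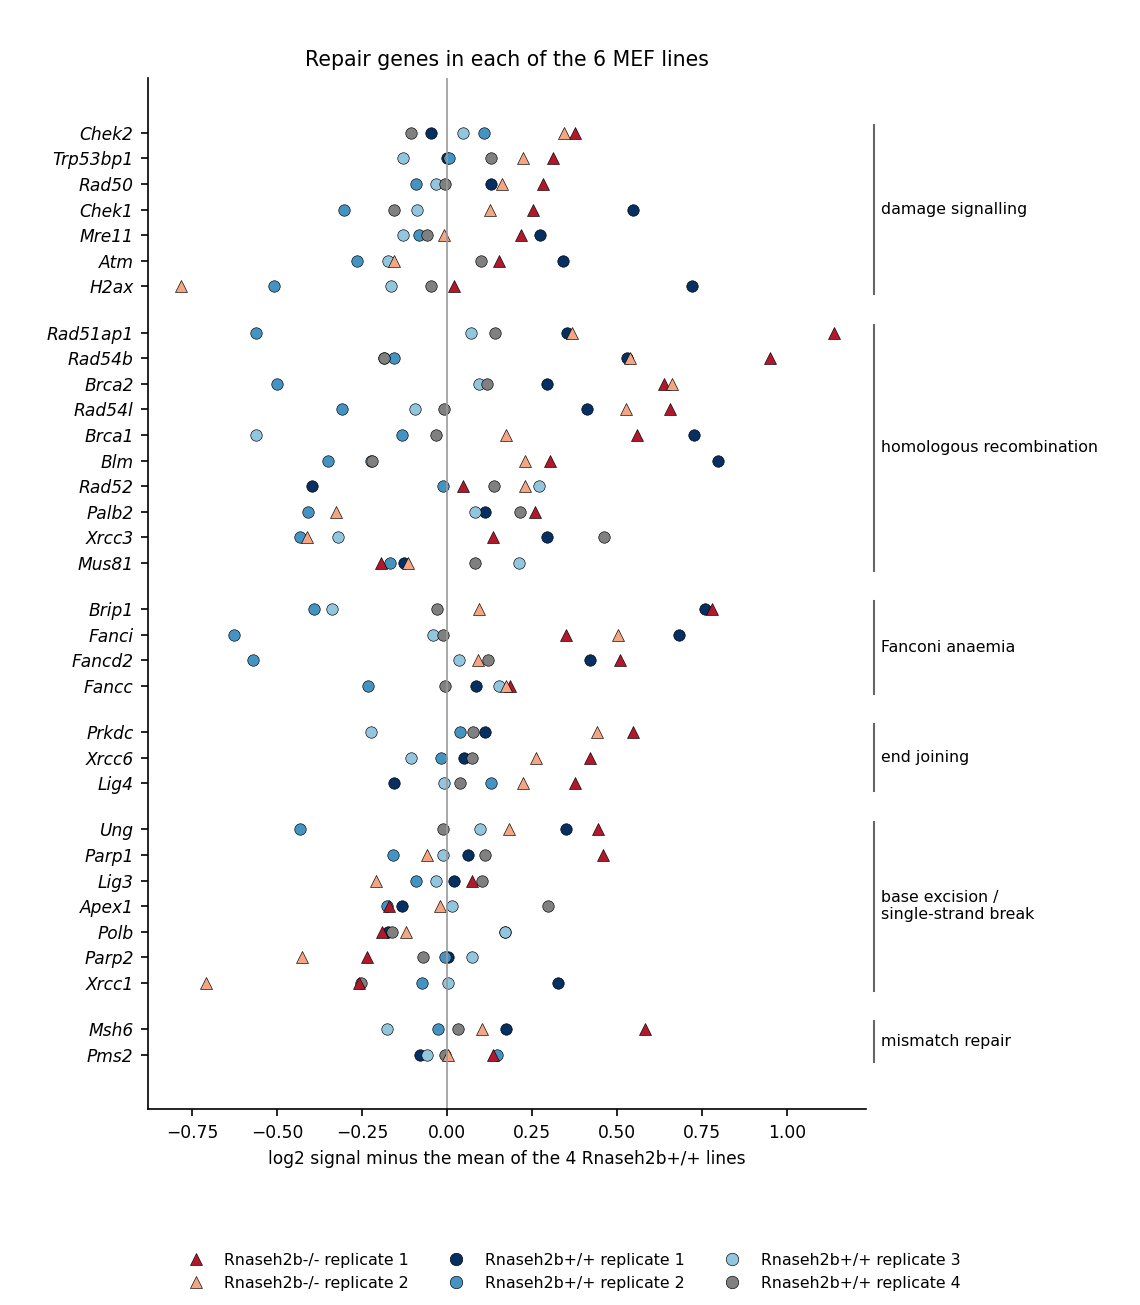
Log2 signal of each of the 33 listed genes in every line, as the deviation from the mean of the 4 Rnaseh2b+/+ lines (horizontal axis), with genes in rows by role. Triangles are the 2 Rnaseh2b-/- lines and circles the 4 controls. Both triangles lie right of all circles for 11 genes, among them the end joining genes, and left of them for Parp2 and Xrcc1, while control replicate 1 (darkest circles) is the rightmost control for 18 genes.

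Of the damage signalling genes, 7 of 10 were measured, with a median log2 fold change of 0.19. Chek2, the effector kinase that Atm activates at breaks, had the smallest p of them. Its log2 signal was 6.81 and 6.78 in the Rnaseh2b-/- lines and 6.39, 6.54, 6.48 and 6.33 in the controls. The groups did not overlap in the average, and the Rnaseh2b-/- pair differed by less than the controls did among themselves. Its 3 probes lay at 0.32, 0.49 and 0.27, none with an unadjusted p under 0.05, and the groups overlapped for the one at 0.27. For the one at 0.32 the lower Rnaseh2b-/- line (6.142) and the highest control (6.141) were nearly level. The log2 fold change of the average was 0.36 (SE 0.13, 1.28-fold, unadjusted p = 0.0268, adjusted p = 0.235). Trp53bp1, the chromatin-bound factor that holds ends back from resection, was at 7.50 and 7.41 against 7.19, 7.19, 7.06 and 7.32, the groups not overlapping in the average (log2 fold change 0.27, SE 0.13, adjusted p = 0.349). Its 3 probes lay at 0.33, 0.49 and -0.021, and only the one at 0.49 had groups that did not overlap. Rad50, the long coiled-coil partner of Mre11, was at 7.28 and 7.16 against 7.13, 6.91, 6.97 and 7.00. The gap between the lower Rnaseh2b-/- line and the highest control was small there (log2 fold change 0.22, SE 0.13, adjusted p = 0.422). Its brighter probe lay at 0.21 with overlapping groups. Only its dim probe, at 0.23, had groups that did not overlap, and that probe was above background in 1 Rnaseh2b-/- line and 0 controls.

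H2ax and Chek1 were spread more widely among controls than between genotypes. H2ax encodes the histone variant that is phosphorylated in chromatin around a break, and its RNA was at 9.85 and 9.05 in the Rnaseh2b-/- lines and 10.55, 9.32, 9.67 and 9.78 in the controls. The 2 Rnaseh2b-/- lines lay on either side of the control median, and the log2 fold change of -0.38 had a 95% interval from -1.24 to 0.48. Chek1, the effector kinase of Atr, was at 5.42 and 5.29 against 5.71, 4.86, 5.08 and 5.01, with control replicate 1 the highest of all lines, and it was above background in both Rnaseh2b-/- lines but in only 1 control (log2 fold change 0.19, adjusted p = 0.722). Its 2 probes differed. The one at -0.035 was above background in 1 control and in no Rnaseh2b-/- line. The one at 0.41, above background in both Rnaseh2b-/- lines and 1 control, had groups that did not overlap. Mre11 and Atm lay at 0.10 and -0.0015, both with overlapping groups, and the 3 probes of Atm lay at -0.35, 0.26 and 0.089.

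Homologous recombination held 4 of the 7 genes that were higher at an unadjusted p under 0.05, among 10 of 14 measured (median log2 fold change 0.32). Rad54b encodes a DNA translocase of homologous recombination. Its log2 signal was 8.80 and 8.39 in the Rnaseh2b-/- lines and 8.38, 7.70, 7.67 and 7.67 in the controls. Control replicates 2, 3 and 4 were nearly alike while control replicate 1 stood next to the lower Rnaseh2b-/- line (log2 fold change 0.74, SE 0.25, 1.68-fold, unadjusted p = 0.0201, adjusted p = 0.217). Rad54l, the other Rad54-type translocase, was at 8.12 and 7.99 against 7.87, 7.15, 7.37 and 7.45, with the same control nearest (log2 fold change 0.59, SE 0.21, 1.51-fold, adjusted p = 0.233).

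Brca2 is needed for strand exchange from resected ends. It was at 6.53 and 6.56 in the Rnaseh2b-/- lines and at 6.19, 5.39, 5.99 and 6.01 in the controls, and it was above background in 3 of the 4. Both Rnaseh2b-/- lines agree to within 0.1 and lie above the brightest control (log2 fold change 0.65, SE 0.23, 1.57-fold, unadjusted p = 0.0241, adjusted p = 0.231). Rad51ap1, which stimulates strand pairing in recombination, was at 7.31 and 6.53 against 6.52, 5.60, 6.24 and 6.31. There the second Rnaseh2b-/- line was level with control replicate 1, and most of the log2 fold change of 0.75 (SE 0.31, 1.68-fold, unadjusted p = 0.0442, adjusted p = 0.281) came from the first. Of its 2 probes, at 0.74 and 0.76, the groups overlapped for the one at 0.76.

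Brca1, which promotes resection and works beside Brca2, was at 5.60 and 5.21 in the Rnaseh2b-/- lines and at 5.77, 4.91, 4.48 and 5.01 in the controls. It was above background in 1 line of each genotype, and control replicate 1 was the highest (log2 fold change 0.37, 95% interval -0.43 to 1.16). The other 5 recombination genes, the helicase gene Blm, Rad52, Palb2, Xrcc3 and the nuclease gene Mus81, had overlapping groups and log2 fold changes from -0.16 (Mus81) to 0.27 (Blm). Palb2 was above background in 1 Rnaseh2b-/- line and 3 controls, and Xrcc3 in 1 and 2. For Mus81 the average hid a difference between probes, one at -0.48 with both Rnaseh2b-/- lines below all controls (unadjusted p = 0.022) and one at 0.17.

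Of the Fanconi anaemia genes, which clear crosslinks between strands, 4 of 6 were measured, and none reached an unadjusted p under 0.05. Fanci and Fancd2 encode the pair of proteins that the pathway marks with ubiquitin. Fanci was at 6.06 and 6.21 in the Rnaseh2b-/- lines and at 6.39, 5.08, 5.67 and 5.70 in the controls, 3 of which were above background. Fancd2 was at 6.37 and 5.95 against 6.28, 5.29, 5.90 and 5.98. In both genes control replicate 2 was the lowest line and control replicate 1 the brightest control, and the log2 fold changes of 0.43 (SE 0.33) and 0.30 (SE 0.28) were smaller than that spread.

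Brip1, the helicase that binds Brca1, showed the same order, at 7.39 and 6.70 against 7.36, 6.21, 6.27 and 6.58 (log2 fold change 0.44, SE 0.36, adjusted p = 0.559). Fancc, a member of the core complex, was at 6.12 and 6.11 against 6.02, 5.70, 6.09 and 5.92. Its groups did not overlap, by a margin of 0.1 or less, and its 2 probes went opposite ways, at 0.49 and -0.13, so its sign depends on the probe.

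Of the end joining genes, 3 of 5 were measured. Both Rnaseh2b-/- lines lay above all controls for Xrcc6 and Lig4, and also for Prkdc, which was counted only through those lines. Xrcc6 encodes Ku70, which with Ku80 clamps onto broken ends. It was the brightest of the 3, at 9.62 and 9.46 in the Rnaseh2b-/- lines and 9.25, 9.18, 9.10 and 9.27 in the controls. The controls lay close together (SD 0.08), and the log2 fold change was 0.34 (SE 0.13, 1.27-fold, unadjusted p = 0.0354, adjusted p = 0.262). Its 3 probes lay at 0.29, 0.35 and 0.38, and the groups overlapped for the one at 0.29. Lig4, the ligase that seals the joined ends, was at 6.59 and 6.44 against 6.06, 6.34, 6.21 and 6.25 (log2 fold change 0.30, SE 0.14, adjusted p = 0.320). Prkdc, the DNA-dependent kinase that Ku recruits, was dim, at 5.51 and 5.41 against 5.08, 5.00, 4.74 and 5.04. It was above background in only 1 Rnaseh2b-/- line and in no control, so no fold is given (unadjusted p = 0.0120, adjusted p = 0.181). The lower bound on its fold, with the lowest signal above background standing in for the controls, was under 1. Probes of Xrcc4 and Xrcc5, partners of these genes, were not above background.

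**Figure D2:**
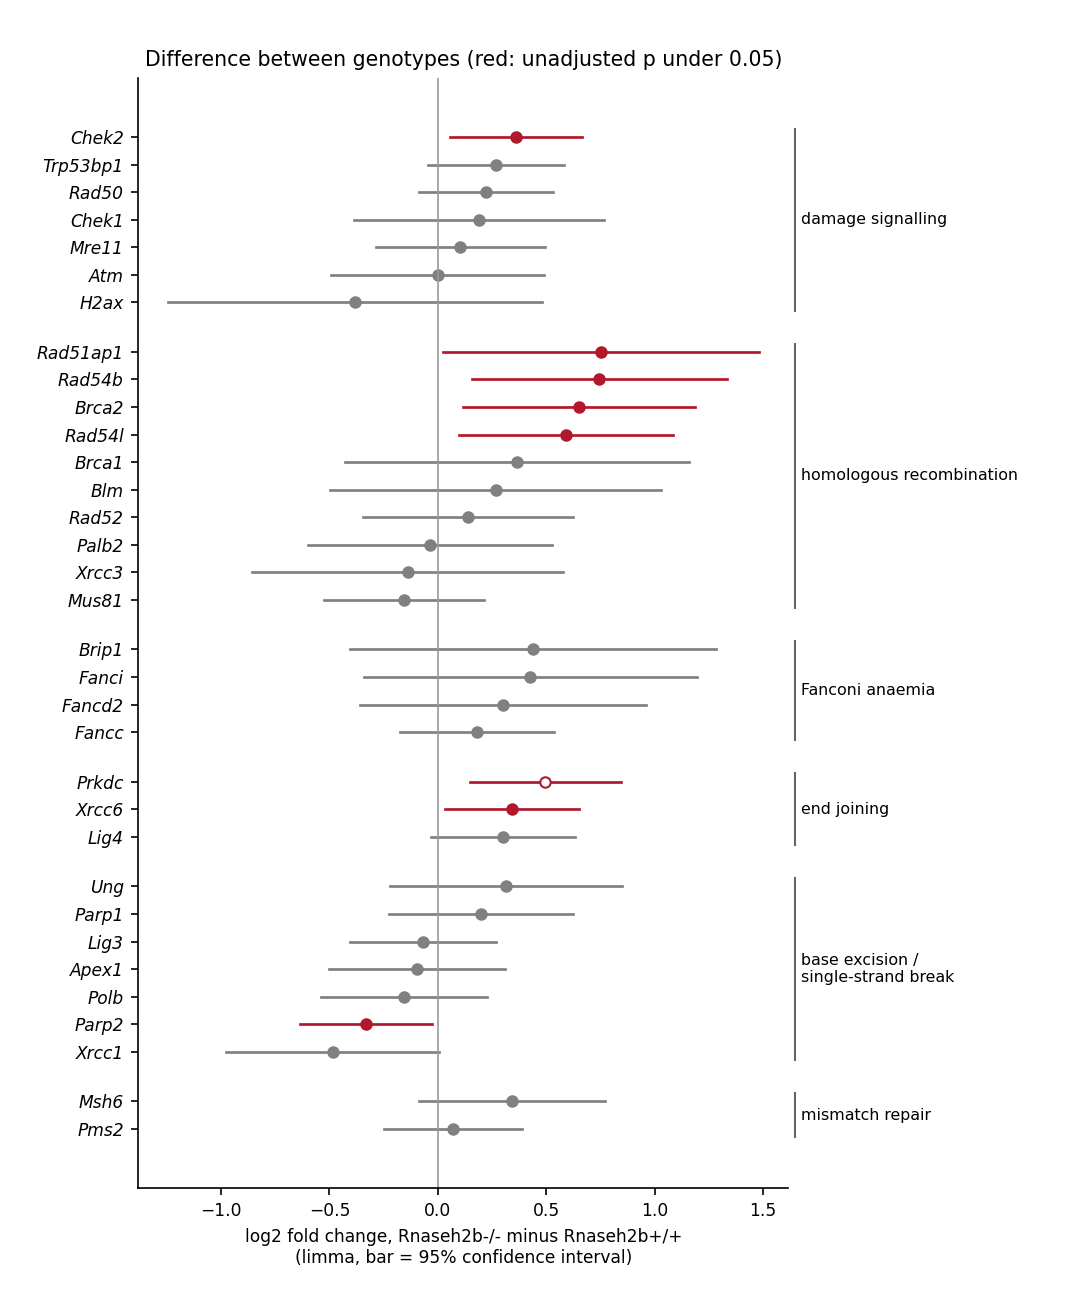
Log2 fold change of each listed gene, Rnaseh2b-/- minus Rnaseh2b+/+ (horizontal axis), from limma, with its 95% confidence interval and genes in rows by role. Red marks an unadjusted p under 0.05 (Chek2, Rad51ap1, Rad54b, Brca2, Rad54l, Prkdc, Xrcc6 and, to the left of 0, Parp2), and the open circle is Prkdc, which was not above background in any control. Widths differ: the interval of H2ax runs from -1.24 to 0.48, that of Chek2 from 0.055 to 0.66.

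For base excision and single-strand break repair the median log2 fold change was -0.096 over 7 of 9 genes measured, near that of all genes (-0.020), with 2 of the 7 above 0. Parp2, a poly(ADP-ribose) polymerase that marks single-strand breaks, was the 1 listed gene lower at an unadjusted p under 0.05. It was at 9.20 and 9.01 in the Rnaseh2b-/- lines and 9.44, 9.43, 9.51 and 9.37 in the controls, the tightest controls of any listed gene (SD 0.059). The log2 fold change was -0.33 (SE 0.13, unadjusted p = 0.0375, adjusted p = 0.265), with 1.26-fold more in controls. Xrcc1, the scaffold that Parp1 and Parp2 bring to a nick, was at 8.24 and 7.79 against 8.82, 8.42, 8.50 and 8.24, so that the first Rnaseh2b-/- line was level with the lowest control and the second below all of them (log2 fold change -0.48, SE 0.21, unadjusted p = 0.0521, adjusted p = 0.296).

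The other genes of this role overlapped between genotypes. Ung, which removes uracil, was at 8.02 and 7.76 in the Rnaseh2b-/- lines and at 7.93, 7.14, 7.67 and 7.56 in the controls (log2 fold change 0.31, SE 0.23). Parp1 was at 8.40 and 7.88 against 8.00, 7.78, 7.93 and 8.05, with only the first Rnaseh2b-/- line outside the controls (log2 fold change 0.20, SE 0.18). Polb, the gap-filling polymerase, was at 6.85 and 6.92 against 6.86, 7.21, 7.21 and 6.88 (log2 fold change -0.16, SE 0.16). Apex1 and Lig3, the abasic site nuclease and the ligase of Xrcc1, lay at -0.096 and -0.069, and the 3 probes of Lig3 at -0.29, 0.041 and 0.039.

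Both mismatch repair genes were measured. Msh6, which recognises mispairs, was at 10.24 and 9.76 in the Rnaseh2b-/- lines and at 9.83, 9.63, 9.48 and 9.69 in the controls, so the first line stood above all controls and the second among them (log2 fold change 0.34, SE 0.18, adjusted p = 0.373). Pms2, which nicks the strand to be corrected, was at 7.20 and 7.06 against 6.98, 7.21, 7.00 and 7.05. Its log2 fold change of 0.070 had a 95% interval from -0.25 to 0.39.

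The listed genes also varied together among lines of the same genotype. Control replicate 1 was the brightest control for 18 of the 33 (54.5%, against 32.7% of all genes) and control replicate 2 the dimmest for 19 (57.6%, against 24.7%). Over the recombination and Fanconi genes alone these counts were 9 and 11 of 14. The first Rnaseh2b-/- line was brighter than the second for 27 of 33 (48.4% of all genes). The median SD over the 4 controls was 0.243 for the listed genes and 0.192 for all genes, from 0.0589 (Parp2) to 0.537 (Brca1).

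Genes of DNA replication and mitosis followed the same order of lines. Of 38 such genes on a list, 30 were measured, and control replicate 1 was the brightest control for 29 of them and replicate 2 the dimmest for 22. The mean log2 signal of the 18 replication genes was 8.85 and 8.35 in the Rnaseh2b-/- lines and 8.53, 7.85, 8.02 and 8.04 in the controls. That of the 12 mitosis genes was 8.83 and 8.26 against 8.79, 7.88, 8.18 and 8.21. The second Rnaseh2b-/- line thus lay among the controls on both measures, and the first was the highest of all lines. All 30 log2 fold changes were above 0 (median 0.38). At an unadjusted p under 0.05, 4 were higher (13.3%, against 7.99% of all genes), and 0 had an adjusted p under 0.05. All 4 were among the 18 replication genes (22.2%, against 21.2% of the listed repair genes), with 0 among the 12 mitosis genes. Both Rnaseh2b-/- lines lay above all controls for 6 of the 18 replication genes and 0 of the 12 mitosis genes. The 33.3% for replication equals that of the listed repair genes (12.5% of all genes). Cdt1, which licenses origins, lay at 0.83 (SE 0.17, adjusted p = 0.0893), Cdc45, part of the replicative helicase, at 0.89 (adjusted p = 0.166), and the mitotic genes Cdc20 and Bub1b at 0.37 and 0.41.

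**Figure D3:**
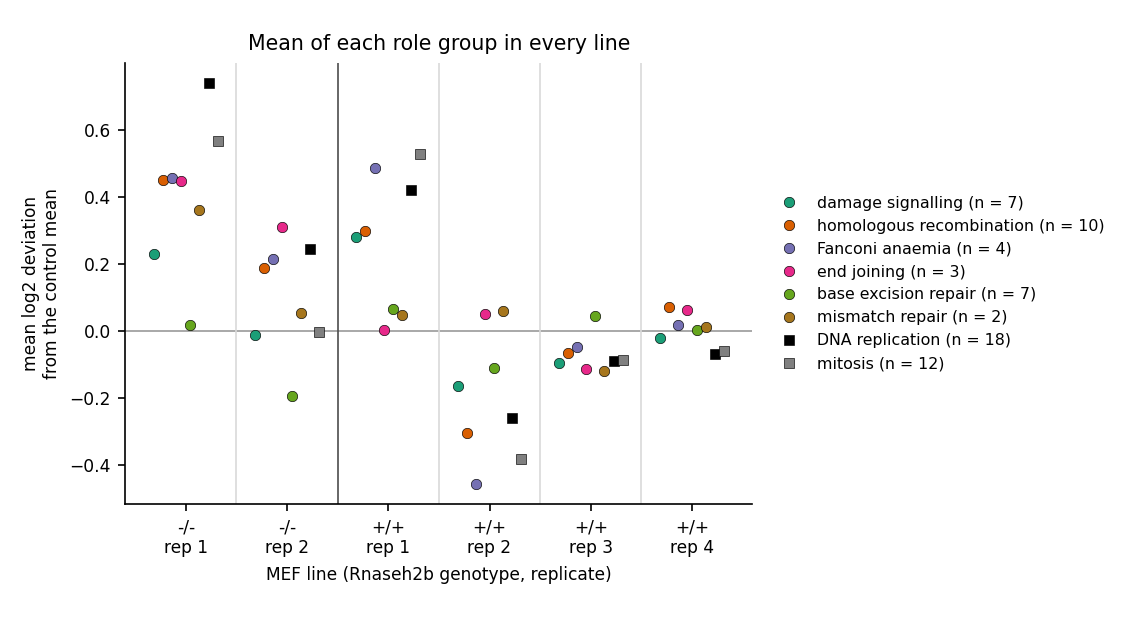
Mean deviation from the control mean, in log2 units (vertical axis), of each role group of listed genes (circles) and of the replication and mitosis genes (squares) in each of the 6 lines (horizontal axis). Recombination and Fanconi genes are high in Rnaseh2b-/- replicate 1 (0.45 and 0.46) and control replicate 1 (0.30 and 0.49), low in control replicate 2, and move with the squares, while end joining genes are at 0.45 and 0.31 in the Rnaseh2b-/- lines, Prkdc included (0.40 and 0.24 without it), and at -0.11 to 0.062 in the controls.

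Across the 6 lines the log2 signal of 13 of the 33 genes correlated with the mean of the replication genes at r over 0.8, as did 9.17% of all genes, and the median r was 0.76 for the listed genes and -0.051 for all. Rad50 (0.97), Rad54b (0.96), Rad54l (0.94), Brip1 (0.94) and Rad51ap1 (0.93) were the listed genes most like it. These are descriptions of 6 arrays, which share 1 normalization and 2 genotypes. Of the end joining genes, Xrcc6 (0.81) is among the 13, with Prkdc at 0.76 and Lig4 at 0.38. Over the 4 controls alone, r was 0.43 for Xrcc6, 0.39 for Prkdc and -0.96 for Lig4. For the other listed genes it ran from -0.78 (Rad52) to 0.99 (H2ax), and an r over 4 lines is imprecise. The mean deviation of Xrcc6 and Lig4 from the control mean was 0.40 and 0.24 in the Rnaseh2b-/- lines and -0.058 to 0.056 in the controls. For the base excision group it was 0.017 and -0.20 against -0.11 to 0.065. The part of the replication level, and of the muscle and keratin signal of the Rnaseh2b-/- lines, in the differences of the listed genes was not tested.

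The counts moved with single lines. Without Rnaseh2b-/- replicate 1, the line with the muscle signal, 0 of 33 genes were higher at an unadjusted p under 0.05 (6.67% of all genes were), with the remaining line assumed to vary as the controls do, 11 lay above all controls (24.1% of all genes did in that setting) and the median was 0.13. Without Rnaseh2b-/- replicate 2, 6 were higher (9.18% of all genes) and 17 above all controls (26.7% of all genes). Without control replicate 1, 12 were higher (36.4%, against 10.1% of all genes) and 19 above all controls (19.2% of all genes), with 0.0536 for Rad54b as the smallest adjusted p. Without control replicate 2, 4 were higher (12.1%, against 6.42% of all genes). Without replicate 3 or replicate 4, 3 were higher (9.09%, against 5.64% and 5.75% of all genes).

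A second list held 105 other repair genes, 81 of them of the same 6 roles and 24 of nucleotide excision, translesion synthesis and direct reversal. At an unadjusted p under 0.05, 5 of 82 measured were higher (6.1%, against 7.99% of all genes) and 6 were lower (against 9.13% of all genes). Of the 82, 52.4% lay above 0 (47.4% of all genes), and the median log2 fold change was 0.019. It was 0.038 over the 60 measured of the same 6 roles and -0.059 over the other 22. By role, the recombination genes lay highest (median 0.20, 10 of 12 above 0), and the end joining genes lowest (median -0.22, 1 of 5 above 0). Of the recombination genes, 3 were higher (25%, against 7.99% of all genes) and 1 lower (against 9.13%) at an unadjusted p. Top3a and Slx1b were among these, each above background in 1 genotype only. The other base excision genes had a median of 0.079 (7 of 13 above 0). Ercc4, the nuclease that with Ercc1 cuts DNA in nucleotide excision repair, was the 1 gene past the adjusted threshold. It was at 5.45 and 5.24 in the Rnaseh2b-/- lines, in neither of which it was above background, and at 6.52, 6.29, 6.24 and 6.55 in the controls, all above background, so that it was tested through its controls. Ercc4 fell, being at least 1.78-fold higher in controls when the lowest signal above background stands in for the Rnaseh2b-/- lines (adjusted p = 0.0481), a call lost in 13 of the 17 alternatives that tested it. Xpa, which verifies damage in the same pathway, lay at -0.48 (adjusted p = 0.234).

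In the Fanconi and recombination pathways, Ube2t, the enzyme that ubiquitinates Fancd2, was at 7.94 and 7.89 against 7.42, 6.79, 6.79 and 6.93 (log2 fold change 0.93, SE 0.21, adjusted p = 0.105). Usp1, which removes that ubiquitin, lay at -0.34 (adjusted p = 0.307). Top3a, the topoisomerase that acts with Blm, was at 5.97 and 5.88 against 5.29, 5.45, 5.28 and 5.42 and was above background in no control, so that it was tested only through the Rnaseh2b-/- lines (at least 1.28-fold by the same kind of bound, adjusted p = 0.114). Slx1b, a nuclease subunit, was at 4.93 and 5.09 against 5.59, 5.54, 5.43 and 5.44 and was above background in no Rnaseh2b-/- line (adjusted p = 0.148). Mad2l2, which serves translesion synthesis and also protects ends from resection, was at 8.67 and 8.59 against 7.97, 7.93, 7.74 and 8.12 (log2 fold change 0.69, SE 0.15, adjusted p = 0.0935).

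Parp3 lay at -0.77 (adjusted p = 0.179) and Polh, a translesion polymerase, at -0.56 (adjusted p = 0.234). Ogg1, which removes oxidised guanine, was at 5.27 and 4.79 against 5.63, 5.36, 5.79 and 5.46 and was above background in no Rnaseh2b-/- line and 2 controls (adjusted p = 0.240). In damage signalling Atrip and Timeless lay at -0.38 and 0.26, and in mismatch repair Mlh3 and Msh3 at -0.088 and -0.061. In end joining Poll lay at -0.22, and Polq, above background in 1 control alone, the only one of the 5 with a log2 fold change above 0, was at 5.47 and 5.25 against 5.67, 4.81, 4.67 and 5.01.

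**Figure D4:**
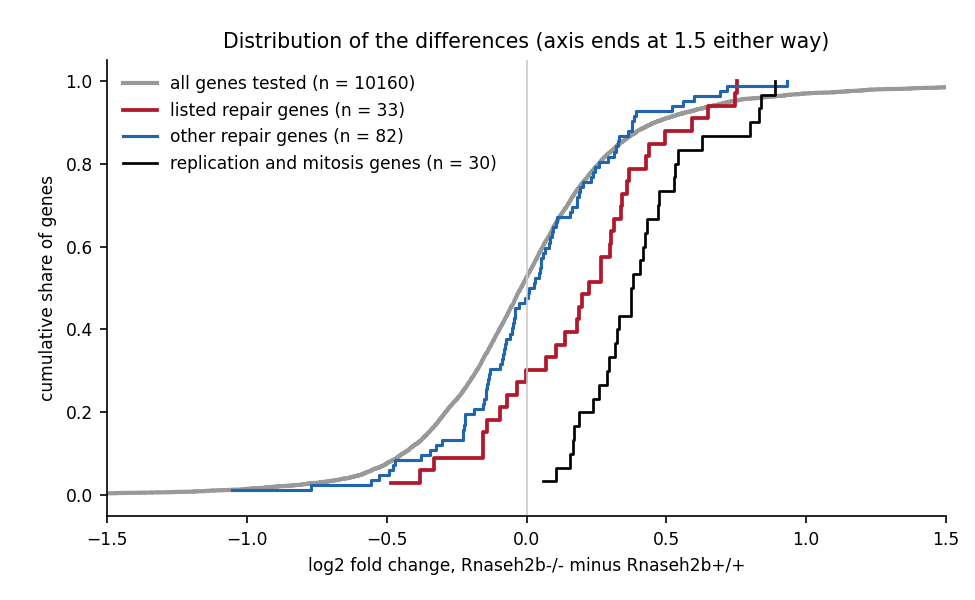
Cumulative share of genes (vertical axis) at or below each log2 fold change, Rnaseh2b-/- minus Rnaseh2b+/+ (horizontal axis), for all 10160 genes, the 33 listed repair genes, 82 other repair genes and 30 replication and mitosis genes. The listed genes (median 0.22) lie right of all genes (median -0.020), the other repair genes (median 0.019) close to them, and the replication and mitosis genes (median 0.38) farthest right.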

How the data were processed

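RNA of 2 Rnaseh2b-/- and 4 Rnaseh2b+/+ MEF lines, each labelled a biological replicate, was hybridised to 1-colour MouseWG-6 v2 arrays. The authors deposited the probe intensity as exported from BeadStudio, without background correction, and a detection p-value for each probe and array. They also deposited log2 values made with the neqc function of limma, used here as an alternative.

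Intensities were normalized with limma 3.58.1 (R 4.3.3), where neqc took the background from the detection p-values, added an offset of 16, quantile-normalized and took log2. Of 45281 probes, 34885 had 1 symbol in the platform annotation, brought up to date through the RefSeq table of GRCm38.p6, 18 had several and 10378 none, and the latter kinds were left out. Probes with detection p under 0.01 on at least 1 array were kept (15805 with 1 symbol) and averaged per gene (10160 genes). For the 6 listed genes whose probes differ in sign, the probes are given too. The 2 genotypes were compared with lmFit and eBayes (residual degrees of freedom 4, prior 3.07), with Benjamini-Hochberg adjustment over all genes and 0.05 as the threshold; p-values measure the spread between these lines. Precision is limited by 6 arrays.

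The listed genes and all other lists were chosen with earlier results of these data known. Named with their values in each line were, per role, up to 5 genes with the smallest p, and of every other list those past the threshold and up to 2 with the smallest p. A gene not above background in 1 group is given as a bound where that bound is at least 1. On each array of the dim group its signal, or the array's lowest detected signal if that is higher, was taken. The mean of these was set against the mean of the bright group. For Prkdc, Slx1b, Ogg1 and Polq the result was under 1, so no bound is given. The limma fit was tested on simulated log2 gene values, with each gene drawn independently. Normalization, the filter and the bounds were not tested in that way. Replicate numbers were not taken to pair lines, since no label says that they do. Over all genes, deviations of same-numbered lines from their group mean correlated at 0.0959 and 0.0611. The deviations of the 2 Rnaseh2b-/- lines mirror each other, so these values cannot show whether same-numbered lines share a factor. Alternatives were 4 normalizations, 3 filters, 2 treatments of probes, 2 variance models, a block on the replicate number, and leaving out each line.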

Additional observations from a re-analysis of the deposited data

Results flagged for a closer look

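Among the 4 controls, the gap of 1 line to its nearest neighbour, as a share of the whole range, passed Dixon's 95% critical value for 3 of 52 sets of control values examined, where chance gives about 2.6. For Rad54b it was 0.956, for Blm 0.886, and for the mean of the other damage signalling genes 0.866. In all 3 the line apart was control replicate 1, the highest. Blm was at 8.04 and 7.97 in the Rnaseh2b-/- lines and at 8.54, 7.39, 7.52 and 7.52 in the controls, so that this control was the highest line of all. Control replicate 1 was also the highest control in replication and mitosis signal, and the part of that in these values was not tested.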

How the results depend on the processing

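No listed gene had an adjusted p under 0.05 under any of 18 alternatives, and the median log2 fold change of the list stayed above 0, from 0.12 to 0.262 and, with a line left out, 0.126 to 0.302. The count higher at an unadjusted p (7) was 2 (6.06%) when arrays were scaled to the median, near the 5.18% of all genes that were higher. In that setting 16.5% of all genes were lower, and their median was -0.161, which left the list median 0.281 above it. This distance was 0.242 in the main setting and 0.135 to 0.333 over the alternatives. The count higher ran from 3 to 12 with a control left out. With the replicate number as a block it was 3, other repair genes lower were 3 and those past the adjusted threshold 0, as were all genes (4.41% higher and 4.54% lower at an unadjusted p). The count lower (1) was 2 under median scaling, no background correction, no filter, both stricter filters, and variance trend with robust fitting. In these settings 6.54% to 16.5% of all genes were lower. The count lower was 0 with cyclic loess, the brightest probe and array weights (7.5% to 9.26% of all genes). With a control left out it was 0 to 1 (6.32% to 11.9% of all genes). Genes above all controls (11) numbered 4 under median scaling and 6 among genes above background on all arrays, a filter that keeps 26 listed genes. With a line left out they numbered 11 to 19 (14.4% to 26.7% of all genes). Genes below all controls (2) numbered 4 under median scaling, 1 with cyclic loess, and 2 to 4 with a line left out (16.9% to 31.3% of all genes). Under median scaling, cyclic loess and the filter on all arrays, the shares of all genes above or below all controls were not counted. Whether the list or all genes moved there cannot be told.

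Of the other repair genes, 10 had a lower probe when each probe was tested (6 were lower otherwise, and 3 to 6 with a line left out), and 4 to 12 were higher (5 otherwise). Ercc4 kept its call with the deposited log2 values, median scaling, detection on at least 2 arrays and without control replicate 1, when 3 genes passed. In the other 13 settings that tested it 0 genes passed (its adjusted p ran from 0.0371 to 0.324 over all 17, and the filter on all arrays left it out), and its log2 fold change was -1.16 to -0.37. The replication and mitosis genes higher (4) were 2 under median scaling and 1 to 11 with a line left out, with 0 to 1 past the adjusted threshold. Of 44 named genes, 37 kept 1 sign throughout. Fancc was at -0.13 with detection on all arrays or the brightest probe, Ung at -0.026 with no filter, Pms2 at -0.051 under median scaling, Poll at 0.034 with detection on all arrays or the brightest probe, and Msh3 at 0.090 with the brightest probe. With a line left out H2ax ran from -0.78 to 0.020, Parp1 from -0.058 to 0.46 and Msh3 from -0.17 to 0.044. The cause of these changes was not tested.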
